A study of Homo sapiens and Mus musculus with 18 samples.

Results

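Protons and X-rays given at the same physical dose were compared in BL41, an established human Burkitt lymphoma line of B-cell origin. The comparison used 6 of the 18 libraries of the study, chosen by their labels alone: the 3 BL41 libraries of cells given 5 Gy of protons and the 3 of cells given 5 Gy of X-rays. All 15069 rows of the BL41 expression table entered the tests, and 655 of them share their gene symbol with another row. The 3 BL41 sham libraries, from unirradiated cells kept at room temperature beside the others, entered the same fit and give a baseline. A mouse lymphoma line, J3D, had the same 3 groups and its values are set beside those of BL41 at the end. BL41 cells of passages 5 to 10 were grown in RPMI medium with fetal bovine serum, penicillin and streptomycin and resuspended 6 h before exposure. Total RNA was taken 12 h after irradiation. Protons were delivered by raster scanning to cells in the centre of the spread-out Bragg peak, the depth range over which a proton beam gives most of its energy. Their energies ran from 129.3 to 148.2 MeV/u, and the median linear energy transfer was 3.5 keV/µm (2.9 to 7.9 keV/µm). X-rays came from a 6 MV linear accelerator. Nothing in the labels states that the replicates of this single line came from separate cultures. The p-values therefore reflect how far these libraries scatter, and that scatter may be technical.

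Each value is a log2 expression value that the authors had centred per gene within each replicate number (1, 2 and 3). The table holds no absolute levels, so genes can be compared between beams but not with each other, and the sequencing depth is unknown. A difference of 1 on this scale is 2-fold. Differences are protons minus X-rays and ± gives the standard error of the limma fit. All 6 listed B-cell markers and all 3 germinal-centre markers had a row, as did 6 of 17 T-cell and NK-cell markers, 1 of 11 myeloid markers and 4 of 15 stromal, epithelial and erythroid markers. Whether those rows lie near 0 expression cannot be read from centred values.

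Both beams break DNA mainly through electrons set loose in and around the cell, and protons deposit energy more densely along the last part of their track. Cells answer double-strand breaks through the kinase ATM, which halts the cycle and, where p53 works, turns on genes such as CDKN1A. Burkitt lymphoma cells are driven by a translocated MYC gene, and MYC raises the making of ribosomes, nucleotides and proteins. The comparison asks whether, at equal dose, the response depends on the kind of radiation.

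No gene passed the test between the beams. At a Benjamini-Hochberg adjusted p under 0.05, limma called 0 of 15069 rows (percent called 0%), and the lowest adjusted p was 0.339. At an unadjusted p under 0.05, 944 rows were higher after protons (6.26% of all rows) and 835 were lower (5.54%), together 1779 rows (11.8%). With the replicate number as a block, 347 rows were higher (2.3%) and 443 lower (2.94%) at an unadjusted p under 0.05. The lowest limma adjusted p with the block was 0.708. Standard errors and adjusted p of single genes below are from the fit without the block. The 1779 rows became 905 without proton library 1, 1061 without X-ray library 1, 748 without all libraries of number 1, 2765 without number 2 and 1045 without number 3.

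**Figure D1:**
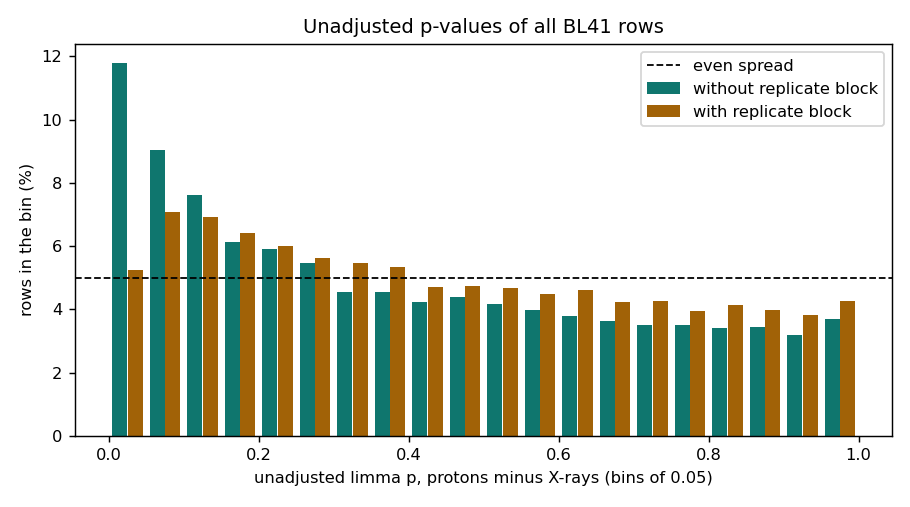
Share of the 15069 BL41 rows (y axis, percent) in each bin of the unadjusted limma p of protons minus X-rays (x axis, bins of 0.05), without and with the replicate number as a block. The lowest bin holds 11.8% of rows without the block and 5.24% with it, and the dashed line marks the 5% of an even spread.

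Most differences between the beams were small, and the intervals bound them. The 95% limma interval of the difference lay within ±1, a 2-fold change, for 95.1% of rows, and within ±0.5, a 1.41-fold change, for 67.6%. With the block these shares were 93.8% and 58.8%. On simulated data the fit without the block gave small p-values to more unchanged genes than it should and intervals that were too narrow. The fit with the block came close to its stated rates. The simulated noise was independent and centred within each number, a setting that the block matches. With the block 5.2% of changes of 0.5 and 32.2% of changes of 1 were recovered, against 36.8% and 76.6% without it. The unblocked counts and intervals, and the absence of calls with the block, should be read with that in mind. The median difference of all rows was 0.02, with medians of 0.03, −0.02 and 0.06 in numbers 1, 2 and 3. Differences beyond ±0.5 were seen in 478 rows (3.17%) and beyond ±1 in 52 rows, of which 32 held tied values at the bottom of the table and 13 were protein coding. The median SD over 3 libraries was 0.106 after protons, 0.138 after X-rays and 0.147 after sham. Both beams moved many genes away from sham. After protons 891 rows rose (5.91%) and 136 fell (0.903%), and after X-rays 728 rose (4.83%) and 78 fell (0.518%), at a limma adjusted p under 0.05. These calls share the sham libraries, and with the block neither comparison called a row (lowest limma adjusted p = 0.0895 for protons and 0.0718 for X-rays). They also depend on scaling and on single libraries. With trimmed-mean scaling 159 rows rose and 184 fell after protons, and 211 rose and 124 fell after X-rays. With quantile normalization 240 rose and 293 fell after protons, and 74 rose and 55 fell after X-rays. Without proton library 3 no row was called after protons, and without X-ray library 1 none after X-rays. Statements below that a gene rose or fell relative to sham hold for the fit without the block and without such rescaling.

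CDKN1A, HMOX1 and PCNA passed the test against sham after both beams, and their differences between the beams were near 0. CDKN1A, the gene of the cycle inhibitor p21, had centred values of 0.20, 0.07 and 0.29 after protons, 0.23, 0.36 and 0.16 after X-rays, and −0.52, −0.61 and −0.64 after sham. It rose by 0.78 after protons and by 0.84 after X-rays relative to sham (limma adjusted p = 0.0129 and 0.00869), and the beams differed by −0.06 ± 0.09, with a 95% interval from −0.28 to 0.15. HMOX1, the haem-degrading enzyme and a marker of oxidative stress, differed by 0.01 ± 0.16 (interval −0.36 to 0.38), and it rose by 1.34 after protons and 1.33 after X-rays (limma adjusted p = 0.0129 and 0.011). The G-protein subunit gene GNG8 differed by 0.12 ± 0.30 and the cytokine IL32 by −0.18 ± 0.29, with intervals of −0.57 to 0.80 and −0.84 to 0.47. PCNA, the sliding clamp of DNA polymerase, fell by 0.52 after protons and by 0.54 after X-rays (limma adjusted p = 0.0167 and 0.0143), and the beams differed by 0.02 ± 0.07. MYC differed by 0.04 ± 0.11. Each of these 6 differences changed sign under at least 1 alternative. A p that misses the threshold does not show equality, and the intervals give how large a difference these libraries leave room for.

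The genes with the smallest p among those lower after protons included the immune checkpoint ligand CD274, a tumour antigen and a T-cell adaptor. PRAME (ENSG00000185686), a germline antigen expressed in many tumours, had centred values of −0.22, −0.19 and −0.23 after protons, 0.48, 0.57 and 0.39 after X-rays, and 0.03, −0.25 and −0.38 after sham. Its proton libraries lay with sham and all below its X-ray libraries. The difference was −0.70 ± 0.11 (limma adjusted p = 0.339), and PRAME rose after X-rays relative to sham by 0.68 (limma adjusted p = 0.0199), while protons differed from sham by −0.02 (0.938). CD274 (ENSG00000120217), which encodes PD-L1, the ligand that restrains T cells through PD-1, had −0.18, 0.06 and −0.34 after protons, 0.38, 0.53 and 0.65 after X-rays, and −0.17, −0.39 and −0.28 after sham. No proton library reached the lowest X-ray library. Its difference was −0.67 ± 0.12 (limma adjusted p = 0.345). Relative to sham it rose by 0.80 after X-rays (limma adjusted p = 0.0191) and differed by 0.13 after protons (0.526).

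LAT, an adaptor of the T-cell receptor, lay between X-rays and sham after protons, and the 3 groups did not overlap. Its centred values were −0.01, 0.04 and −0.07 after protons, 0.47, 0.42 and 0.52 after X-rays, and −0.31, −0.42 and −0.59 after sham. It rose after both beams relative to sham, by 0.43 after protons and 0.91 after X-rays (limma adjusted p = 0.0295 and 0.00413), and the beams differed by −0.48 ± 0.08 (limma adjusted p = 0.339). CHAD, the gene of a cartilage matrix protein, had 0.00, −0.16 and −0.09 after protons and 0.43, 0.36 and 0.31 after X-rays, a difference of −0.45 ± 0.07. The protein phosphatase gene PPM1J was the reverse with respect to sham. It fell by 0.68 after protons relative to sham (limma adjusted p = 0.0227) and stood at −0.02 after X-rays, and the beams differed by −0.66 ± 0.12. CTSK, a lysosomal cysteine protease, differed by −0.62 ± 0.12, TP53I13, a p53-inducible gene, by −0.44 ± 0.09, and the desaturase-like gene FADS3 by −0.44 ± 0.09. APLP1, of the amyloid precursor family, differed by −0.50 ± 0.09 but held tied values. The limma adjusted p of these genes ran from 0.339 to 0.376.

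The genes with the smallest p among those higher after protons included enzymes of lipid and glutathione metabolism and RNA-binding proteins. ECI1 (ENSG00000167969), a mitochondrial isomerase of fatty acid oxidation, had centred values of 0.21, 0.34 and 0.28 after protons, −0.17, −0.14 and −0.37 after X-rays, and −0.02, −0.07 and −0.10 after sham. All proton libraries lay above sham and all X-ray libraries below it. The difference was 0.50 ± 0.08 (limma adjusted p = 0.339), and ECI1 rose after protons relative to sham by 0.34 (limma adjusted p = 0.0408). ZNF530, a zinc-finger gene, had 0.26, 0.34 and 0.23 after protons and −0.20, −0.45 and −0.64 after X-rays, a difference of 0.71 ± 0.13. GCLC, the catalytic subunit that makes the first step of glutathione synthesis, had 0.31, 0.17 and 0.15 after protons, −0.12, −0.07 and −0.17 after X-rays, and −0.13, −0.17 and −0.13 after sham. Its X-ray and sham values overlapped, and it rose after protons relative to sham by 0.36 (limma adjusted p = 0.0284), with a difference between beams of 0.33 ± 0.07 (0.372).

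CPEB1, which binds messenger RNA and controls poly(A) tails, rose by 0.78 after protons relative to sham (limma adjusted p = 0.0167) and stood at 0.20 after X-rays (0.334), a difference between beams of 0.58 ± 0.12. BTBD9, TMEM199, the lipid-transfer gene TEX2 and the X-linked transcription factor ZFX differed by 0.48 ± 0.10, 0.41 ± 0.09, 0.39 ± 0.07 and 0.53 ± 0.11. The pseudogene HSPD1P1 differed by 0.45 ± 0.09, and its reads may belong to its parent gene, so this value is uncertain. LSM14A, a protein of cytoplasmic P-bodies, lay below sham after both beams and further below after X-rays. Its centred values were 0.09, −0.12 and −0.06 after protons, −0.49, −0.60 and −0.63 after X-rays, and 0.20, 0.59 and 0.57 after sham. It fell by 0.48 after protons and by 1.02 after X-rays relative to sham (limma adjusted p = 0.0468 and 0.00893), and the beams differed by 0.54 ± 0.12 (0.392). The limma adjusted p of the 10 genes with the smallest p in this direction ran from 0.339 to 0.392.

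**Figure D2:**
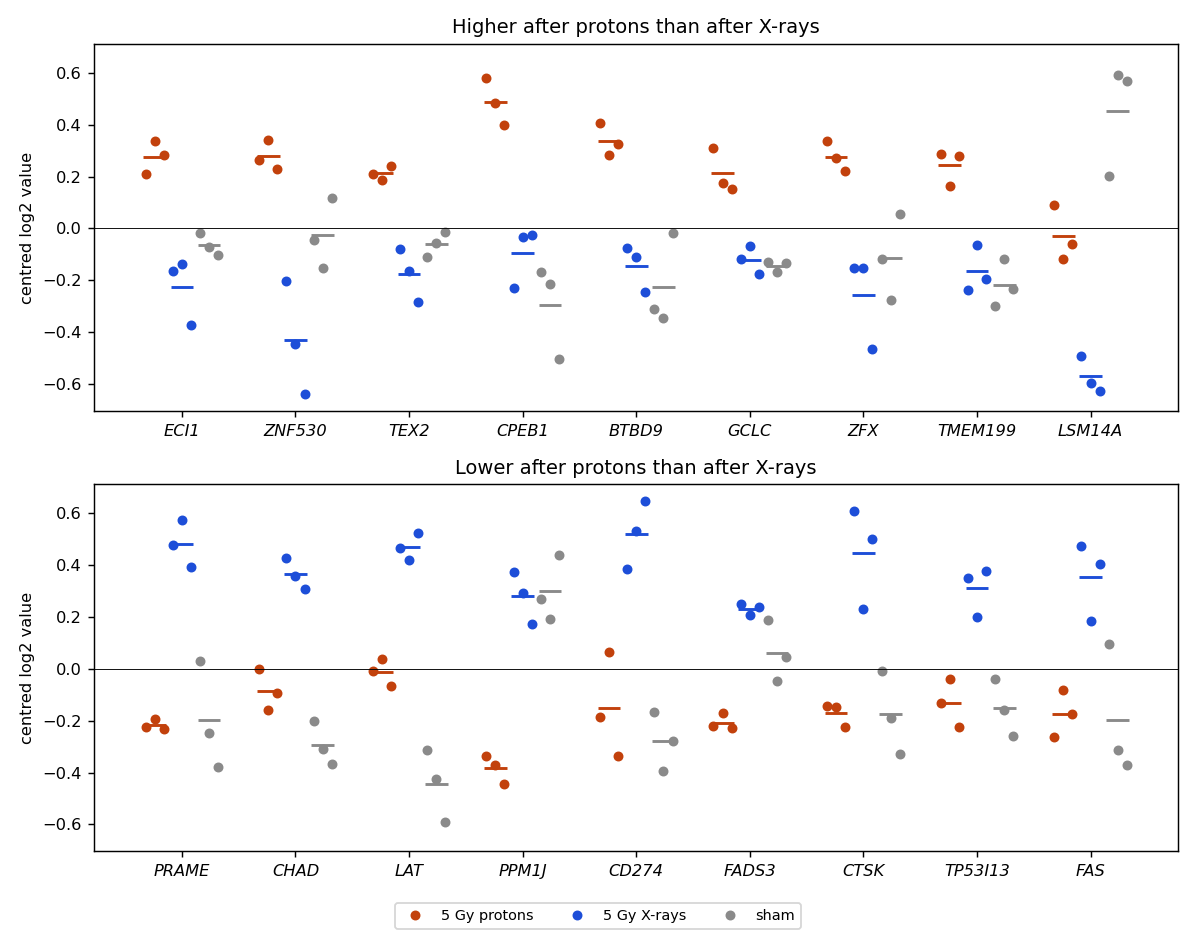
Centred log2 value (y axis) of 9 genes higher and 9 lower after protons than after X-rays, in the 3 proton, 3 X-ray and 3 sham libraries (points, numbers 1 to 3 from left to right, and bars for group means). The proton and X-ray points do not overlap for any of the 18 genes, which were picked for small p (FAS for its place among p53 targets).

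By size of difference, among genes with an official symbol whose proton and X-ray libraries did not overlap, single segments of immunoglobulin and T-cell receptor genes led and varied widely. The segment IGHD3-3 ran from −2.32 to −0.50 after protons and from 0.48 to 2.37 after X-rays, and the segment TRAJ47 had 1.70, 1.92 and 0.31 after protons and −1.07, −2.41 and −0.03 after X-rays. IGHD3-3 differed by −2.87 ± 0.72, TRAJ47 by 2.48 ± 0.70 and TRAJ10 by −2.37 ± 0.69. Such segments are short and share sequence with their neighbours, so these values are uncertain. SRXN1, sulfiredoxin, which repairs over-oxidised peroxiredoxins, had 0.20, 1.08 and 0.77 after protons, −0.50, −0.36 and −0.26 after X-rays, and 0.36, −0.36 and −0.25 after sham. Its difference was 1.06 ± 0.25 (limma adjusted p = 0.393), and proton library 1 lay below sham library 1. SERPINA9, a serpin of germinal-centre B cells, had 0.59, 0.73 and 0.03 after protons and −0.76, −0.66 and −0.18 after X-rays, a difference of 0.98 ± 0.30 (limma adjusted p = 0.404). The lipoprotein component APOM differed by 1.36 ± 0.53, OXLD1 by −0.94 ± 0.21, AMIGO3 by −0.93 ± 0.38 and the meiotic kinase AURKC, with tied values, by −0.97 ± 0.23. In all, 1655 rows had all 3 proton libraries above the 3 X-ray libraries (11% of rows) and 1374 had them all below (9.12%).

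Genes that build ribosomes were nearly all higher after protons than after X-rays. Of 111 listed ribosome biogenesis genes 110 were measured, and 108 of them had a difference above 0, against 54% of all rows. Their median difference was 0.24, against 0.02 for all rows, with members from −0.31 to 0.51. At an unadjusted p under 0.05, 42 were higher (6.26% of all rows) and 0 lower (5.54%), and none passed after adjustment. Relative to sham the members had a median of 0.20 after protons and −0.03 after X-rays, against 0.12 and 0.09 for all rows. Of the 110 members, 1 (WDR12) rose relative to sham after protons at a limma adjusted p under 0.05, against 5.91% of all rows. After X-rays 0 did, against 4.83%.

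Averaged over the 3 numbers, the shift was present in each role of the pathway. In number 2 alone the medians of the roles ran only from −0.01 to 0.05. The RNA polymerase I genes, which transcribe ribosomal RNA, had a median of 0.21 with 13 of 14 above 0 (6 of 14 in number 2). The single member below 0, TAF1C at −0.31 ± 0.60, had proton libraries at 1.12, −1.21 and −0.55 and X-ray libraries at −0.50, 0.50 and 0.28, and its sign turned without number 2 and without proton library 2. The genes of the snoRNPs that modify ribosomal RNA had a median of 0.21 (10 of 11 above 0). The small subunit processome, which folds and cuts the small-subunit precursor, had a median of 0.30 (40 of 40), and the large-subunit assembly factors had a median of 0.24 (45 of 45). In the order of these roles, 2, 3, 16 and 21 genes were higher at an unadjusted p under 0.05 (6.26% of all rows). With the block 0, 0, 2 and 5 were higher (2.3% of all rows). RRP15, a large-subunit maturation factor, had 0.36, 0.20 and 0.06 after protons and −0.44, −0.12 and −0.27 after X-rays, a difference of 0.48 ± 0.15 (limma adjusted p = 0.404). WDR12, of the PeBoW complex, had 0.25, 0.23 and 0.13 after protons and −0.14, 0.04 and −0.17 after X-rays, a difference of 0.29 ± 0.10. SDAD1 differed by 0.27 ± 0.09, and the nucleolar protein NCL by 0.22 ± 0.08.

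The size of the shift depended on the replicate number. The median of the 110 members was 0.50 in number 1, 0.04 in number 2 and 0.19 in number 3, with 107, 68 and 100 members above 0. In all 3 numbers 59 members were above 0, against 16.9% of all rows. The 42 genes at an unadjusted p under 0.05 became 7 with the block (2.3% of all rows were higher there). Without proton library 1 they became 4, while 905 of all 15069 rows passed in either direction. Without X-ray libraries 1, 3 and 2 in turn they became 10, 20 and 75, while 1061, 1280 and 2452 rows passed. Without number 1 they became 2, and 1 other member was lower, while 748 rows passed. The share of the 110 members that passed there was below that of all rows. The median there was 0.12, and 97 members were above 0. Without number 2 the median was 0.35, with 64 higher members, while 2765 rows passed. Without number 3 the median was 0.25, with 4 higher members, while 1045 rows passed. After adjustment for GC content and transcript length the median was 0.23 with 3 of 108 below 0.

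**Figure D3:**
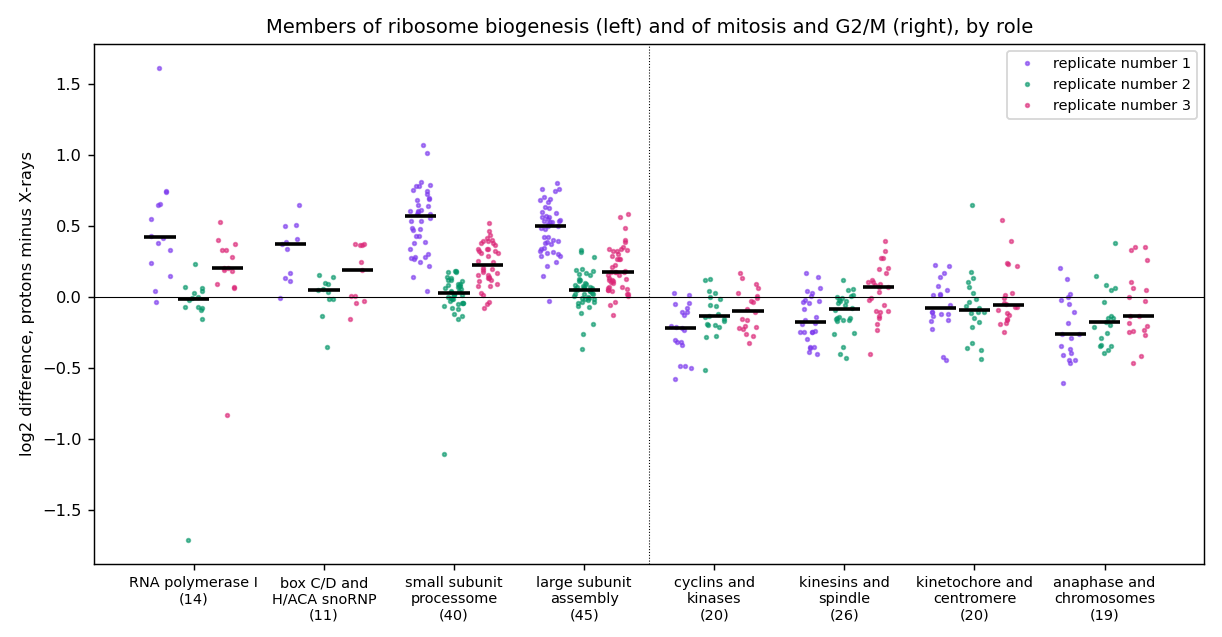
Log2 difference, protons minus X-rays (y axis), of each measured member of ribosome biogenesis and of mitosis and G2/M by role (x axis, number of members in brackets), in replicate numbers 1, 2 and 3 (points in 3 colours, bars for medians). Ribosome biogenesis medians lie near 0 in number 2 and above 0 in numbers 1 and 3, and 7 of the 8 roles have medians of one sign in numbers 1 and 3.

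MYC and its partner MAX bind the E-box CACGTG, so the promoters of the ribosome biogenesis genes were searched for it. In the RefSeq table (GRCh38.p14, 250 bases before to 50 after each gene's start) 88 members had a promoter, and 29 of them held the letters CACGTG, which read the same on both strands (33.0%), against 10.3% of the 8888 promoters of BL41 rows and 7.43% of all 27305 promoters in the table. A match of letters is a description and not a binding site. The 29 members with it had a median difference of 0.27 (28 above 0), and the 59 without it had 0.21 (58 above 0). The 3 promoters shown belong to the members with the box that had the smallest p, with the box in capitals: SDAD1 at chr4:75990896-75991195 on the minus strand, GNL2, a nucleolar GTPase, at chr1:37595888-37596187 on the minus strand, and LTV1, a small-subunit export factor, at chr6:143843088-143843387 on the plus strand. The box lies near the upstream end of the window in SDAD1 and just after the start in GNL2 and LTV1.
SDAD1: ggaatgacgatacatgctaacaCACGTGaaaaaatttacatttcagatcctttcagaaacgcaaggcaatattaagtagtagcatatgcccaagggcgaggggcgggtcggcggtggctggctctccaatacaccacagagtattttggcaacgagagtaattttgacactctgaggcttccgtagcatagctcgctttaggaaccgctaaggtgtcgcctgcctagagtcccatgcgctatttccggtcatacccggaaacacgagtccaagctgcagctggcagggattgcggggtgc
GNL2: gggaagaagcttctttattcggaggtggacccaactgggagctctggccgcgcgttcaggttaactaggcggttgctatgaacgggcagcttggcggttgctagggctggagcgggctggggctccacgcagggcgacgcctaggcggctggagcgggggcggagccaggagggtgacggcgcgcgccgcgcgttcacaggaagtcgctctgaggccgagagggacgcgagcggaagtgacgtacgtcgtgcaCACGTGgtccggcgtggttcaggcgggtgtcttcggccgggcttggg
LTV1: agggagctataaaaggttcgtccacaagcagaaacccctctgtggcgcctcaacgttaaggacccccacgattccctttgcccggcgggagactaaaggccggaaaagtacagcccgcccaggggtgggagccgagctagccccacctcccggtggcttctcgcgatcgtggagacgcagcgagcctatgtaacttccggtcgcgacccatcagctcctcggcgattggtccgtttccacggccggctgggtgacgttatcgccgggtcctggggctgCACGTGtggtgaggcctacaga
SDAD1 had 0.19, 0.13 and 0.17 after protons and −0.18, 0.06 and −0.18 after X-rays. GNL2 differed by 0.27 ± 0.09 and LTV1 by 0.35 ± 0.12, and the LTV1 libraries overlapped between the beams (0.06 in proton library 2 and X-ray library 2).

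Ribosomal proteins and other genes of protein synthesis had smaller differences. The proteins of the cytoplasmic ribosome itself had a median difference of −0.07, with 71 of 78 below 0 (46% of all rows). Of these 0 were higher (6.26% of all rows) and 0 lower (5.54%) at an unadjusted p under 0.05. Their medians in numbers 1, 2 and 3 were −0.12, 0.11 and −0.19, so the sign was not shared, and the median was −0.01 without number 3. RPL28 was at −0.16 ± 0.09, while RPS26, whose pseudogenes can take its reads, was at 0.29 ± 0.20. The mitochondrial ribosomal proteins had a median of 0.12, with 68 of 76 above 0 and medians of 0.22, 0.09 and 0.02. Of these 12 were higher (6.26% of all rows) and 0 lower (5.54%) at an unadjusted p under 0.05, none of them with the block. In 32 of 76 the proton libraries lay above the X-ray libraries (11% of all rows). MRPL42 had 0.14, 0.16 and 0.12 after protons and −0.04, −0.13 and −0.04 after X-rays, a difference of 0.21 ± 0.07 (limma adjusted p = 0.404), and it rose by 0.32 after protons relative to sham (0.0326). MRPS30 differed by 0.25 ± 0.09.

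Translation factors had a median of 0.08 (32 of 45 above 0), and medians of 0.14, 0.003 and 0.05 by number. At an unadjusted p under 0.05, 7 were higher (6.26% of all rows) and 2 lower (5.54%). With the block 2 were higher (2.3% of all rows) and 0 lower (2.94%). EIF3B and EIF3J, subunits of the initiation factor that joins the small ribosomal subunit, differed by 0.31 ± 0.09 and 0.34 ± 0.10. EEF2, which moves the ribosome along the message, differed by −0.30 ± 0.12, with 0 overlap between the proton values of −0.32, −0.05 and −0.08 and the X-ray values of 0.28, 0.03 and 0.13. The aminoacyl-tRNA synthetases, which charge tRNAs, had a median of 0.12 (13 of 20 above 0), and medians of 0.20, −0.05 and 0.11 by number. At an unadjusted p under 0.05, 1 was higher (FARSB, 0.20 ± 0.09) and 1 lower (CARS, −0.23 ± 0.09). These shares are near those of all rows (6.26% and 5.54%). HARS differed by 0.20 ± 0.10. Purine synthesis genes had a median of 0.13 with 14 of 15 above 0, and medians of 0.22, 0.02 and 0.12 by number. At an unadjusted p under 0.05, 5 were higher (6.26% of all rows), none of them with the block. Among the 5 were ADSS (0.23 ± 0.09), GART (0.19 ± 0.08) and PAICS (0.16 ± 0.06). PHGDH, the entry enzyme of serine synthesis, differed by −0.24 ± 0.10. The other growth genes that MYC is known to drive had a median of 0.14 with 18 of 19 above 0, and medians of 0.30, 0.07 and 0.15 by number. At an unadjusted p under 0.05, 5 were higher (6.26% of all rows) and 0 lower (5.54%), and with the block 1 was higher (2.3%). ODC1, which starts polyamine synthesis, differed by 0.44 ± 0.15. MYC, MAX and their partners had a median of 0.01, with 9 of 16 above 0. At an unadjusted p under 0.05, 2 were higher (6.26% of all rows) and 2 lower (5.54%). With the block 0 were higher (2.3% of all rows) and 0 lower (2.94%). The lowest of them was MXD3, a MAX partner that opposes MYC at E-boxes, at −0.58 ± 0.20. It had −0.52, −0.18 and −0.14 after protons and 0.43, 0.19 and 0.28 after X-rays.

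Genes that fold and degrade proteins were mostly above 0 as well. Chaperones had a median of 0.15 (24 of 29 above 0), and medians of 0.31, 0.04 and 0.11 by number. At an unadjusted p under 0.05, 4 were higher (6.26% of all rows) and 1 lower (5.54%). With the block 1 was higher (2.3% of all rows) and 0 lower (2.94%). The co-chaperone DNAJA1 differed by 0.40 ± 0.14 and the mitochondrial chaperone HSPA9 by 0.26 ± 0.10, while the small heat-shock protein HSPB1 differed by −0.37 ± 0.13. Proteasome subunits had a median of 0.15 with 34 of 36 above 0 and medians of 0.34, 0.03 and 0.06 by number. At an unadjusted p under 0.05, 4 of 22 regulatory-particle subunits and 0 of 14 core subunits were higher (6.26% of all rows), and 0 with the block. PSMD6, PSMC3 and PSMC6 differed by 0.24 ± 0.09, 0.34 ± 0.15 and 0.23 ± 0.10. Against sham, 7 of 36 proteasome genes rose after protons (5.91% of all rows) and 0 after X-rays (4.83%). These 2 counts were not tested against each other, and no proteasome gene passed the adjusted test between the beams. The unfolded protein response genes of the endoplasmic reticulum had a median of 0.24 with 15 of 18 above 0, though the median was −0.08 in number 2, and the disulfide isomerase PDIA6 differed by 0.27 ± 0.10. The integrated stress response genes had the opposite sign, with a median of −0.12, 12 of 16 below 0 and medians of −0.10, −0.19 and −0.07. Of these 3 were lower at an unadjusted p under 0.05 (5.54% of all rows), none of them with the block. Among the 3 were CEBPB (−0.21 ± 0.08) and SESN2 (−0.22 ± 0.09).

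Mitotic genes were mostly lower after protons than after X-rays, by a small amount. Of 85 mitosis and G2/M genes 67 had a difference below 0, against 46% of all rows, with a median of −0.10 and medians of −0.16, −0.13 and −0.04 in numbers 1, 2 and 3. In all 3 numbers 34 were below 0, against 13.2% of all rows. At an unadjusted p under 0.05, 5 of 85 were lower (5.54% of all rows) and 2 higher (6.26%), and with the block 2 were lower (2.94% of all rows) and 0 higher (2.3%). These shares are near those of all rows. The median without number 3 was −0.15, and without numbers 1 and 2 in turn it was −0.07. Relative to sham the list median was 0.03 after protons and 0.14 after X-rays, against 0.12 and 0.09 for all rows. The cyclins and kinases had 19 of 20 members below 0 (median −0.14), the anaphase and chromosome genes 15 of 19 (−0.16), the kinesins and spindle genes 19 of 26 (−0.07) and the kinetochore genes 14 of 20 (−0.07).

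AURKB, the kinase that corrects chromosome attachment, had 0.00, −0.17 and −0.02 after protons, 0.32, 0.34 and 0.25 after X-rays, and −0.25, −0.10 and −0.17 after sham. It rose by 0.48 after X-rays relative to sham (limma adjusted p = 0.0233), stood 0.11 above sham after protons (0.415), and differed between the beams by −0.37 ± 0.08 (0.392). DEPDC1, a mitotic regulator, had −0.11, −0.03 and 0.09 after protons and 0.30, 0.31 and 0.34 after X-rays, a difference of −0.33 ± 0.10 (limma adjusted p = 0.404). It rose by 0.49 after X-rays relative to sham (limma adjusted p = 0.0298). ARHGAP11A went the other way, at 0.29 ± 0.10. Of the 85 mitotic genes, 2 (AURKB and DEPDC1) rose after X-rays relative to sham (4.83% of all rows) and 0 after protons (5.91%). Neither count exceeds the share of all rows.

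Many mitotic promoters carry the cell-cycle homology region (CHR), a short element through which the DREAM and MMB complexes repress genes in early phases and activate them in G2 and M. The letters TTTGAA or TTTAAA on either strand stood in 56 of 70 mitotic promoters of the RefSeq table (80%), against 15.6% of promoters of BL41 rows. The 56 members with these letters had a median of −0.11 (44 below 0) and the 14 without had −0.07 (9 below 0). The promoter of DEPDC1, at chr1:68497033-68497332 on the minus strand of GRCh38.p14, is shown because DEPDC1 had the smallest p among lower members with the element, which is in capitals and reads TTTGAA on the other strand.
DEPDC1: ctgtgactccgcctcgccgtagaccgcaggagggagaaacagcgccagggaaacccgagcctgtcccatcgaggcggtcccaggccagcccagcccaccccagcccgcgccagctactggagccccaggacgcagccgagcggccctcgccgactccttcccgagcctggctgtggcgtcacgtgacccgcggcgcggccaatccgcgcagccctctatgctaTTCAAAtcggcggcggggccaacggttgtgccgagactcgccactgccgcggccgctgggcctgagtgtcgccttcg

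Genes of the G1/S transition and DNA replication were mostly above 0, with 60 of 75 above 0 and a median of 0.09 (0.09, 0.04 and 0.13 by number). Of these 9 were higher (6.26% of all rows) and 0 lower at an unadjusted p under 0.05, and with the block 2 were higher, a share near the 2.3% of all rows. Relative to sham the list had medians of −0.08 after protons and −0.18 after X-rays, and 7 genes fell after protons (0.903% of all rows) and 11 after X-rays (0.518%). SLBP, which binds the stem-loop of histone messages, had −0.05, −0.04 and −0.03 after protons, −0.28, −0.29 and −0.39 after X-rays, and 0.20, 0.38 and 0.33 after sham. The 3 groups did not overlap. SLBP fell by 0.34 after protons and by 0.62 after X-rays relative to sham (limma adjusted p = 0.031 and 0.00831), and the beams differed by 0.28 ± 0.07 (0.404). CDC6, which loads the replicative helicase, fell by 0.48 after X-rays relative to sham (limma adjusted p = 0.021) and stood at −0.25 after protons (0.0906), a difference between beams of 0.23 ± 0.08. POLD3, a subunit of DNA polymerase delta, differed by 0.26 ± 0.09. TK1, thymidine kinase, was at −0.21 ± 0.11 and fell after protons relative to sham by 0.47 (limma adjusted p = 0.0397).

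Clustered histone genes had medians of −0.44 after protons and −0.43 after X-rays relative to sham, over 15 measured genes of 30 listed. The medians of all rows were 0.12 and 0.09. Of the 15 genes, 5 fell after protons (0.903% of all rows) and 4 after X-rays (0.518%), at a limma adjusted p under 0.05. The others did not pass the test. Between the beams the 15 genes had a median difference of −0.04, with 10 below 0. HIST1H2BD differed by −0.36 ± 0.14, with −0.32, −0.56 and −0.28 after protons and 0.12, −0.18 and −0.04 after X-rays. HIST1H2BC was at −0.34 ± 0.17 and HIST4H4 at 0.38 ± 0.17. These genes have near-identical copies and messages that largely lack poly(A) tails, so their values are uncertain.

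Of the p53 targets, 4 of 31 were lower after protons at an unadjusted p under 0.05 (5.54% of all rows) and 0 higher (6.26%). With the block 1 was lower (2.94% of all rows). Their median was −0.04, with 17 below 0. FAS, the death receptor, had −0.26, −0.08 and −0.17 after protons, 0.47, 0.18 and 0.40 after X-rays, and 0.10, −0.31 and −0.37 after sham. It rose by 0.55 after X-rays relative to sham (limma adjusted p = 0.0438) and differed by 0.02 after protons (0.922), and the beams differed by −0.53 ± 0.13 (0.404). The stress-induced sestrin gene SESN1 differed by −0.33 ± 0.13. MDM2, the ligase that degrades p53, was at 0.24 ± 0.16 with overlapping libraries, X-ray library 3 being at −0.57, and the nuclease gene AEN was at 0.27 ± 0.16. Caspases and death receptors had 13 of 21 members above 0. CASP1, the inflammatory caspase, had −0.44, −0.16 and −0.70 after protons and 0.08, 0.42 and 0.42 after X-rays, a difference of −0.74 ± 0.20 (limma adjusted p = 0.404). XIAP, an inhibitor of caspases, had 0.21, 0.25 and 0.44 after protons and −0.09, 0.00 and −0.44 after X-rays, a difference of 0.48 ± 0.14 (limma adjusted p = 0.404).

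Double-strand break genes had a median of 0.09 (44 of 60 above 0). At an unadjusted p under 0.05, 3 of 60 were higher (6.26% of all rows) and 3 lower (5.54%), shares near those of all rows. With the block 1 was higher (2.3% of all rows) and 2 lower (2.94%), again near the shares of all rows. The end-joining pathway, which seals most radiation breaks in mammalian cells, had members on both sides. NHEJ1, which encodes the scaffold XLF, had 0.28, 0.15 and 0.20 after protons, −0.32, −0.14 and −0.30 after X-rays, and −0.26, −0.11 and 0.08 after sham, a difference of 0.46 ± 0.10 (limma adjusted p = 0.392). The ligase of the same step, LIG4, had −0.18, −0.12 and −0.16 after protons and 0.17, 0.23 and 0.09 after X-rays, a difference of −0.31 ± 0.10 (limma adjusted p = 0.404). POLM, a gap-filling polymerase, differed by −0.31 ± 0.11. In each of these genes the proton and X-ray libraries did not overlap. Homologous recombination genes had a median of 0.09 with 21 of 28 above 0. At an unadjusted p under 0.05, 1 of 28 was lower (5.54% of all rows) and 0 higher (6.26%).

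**Figure D4:**
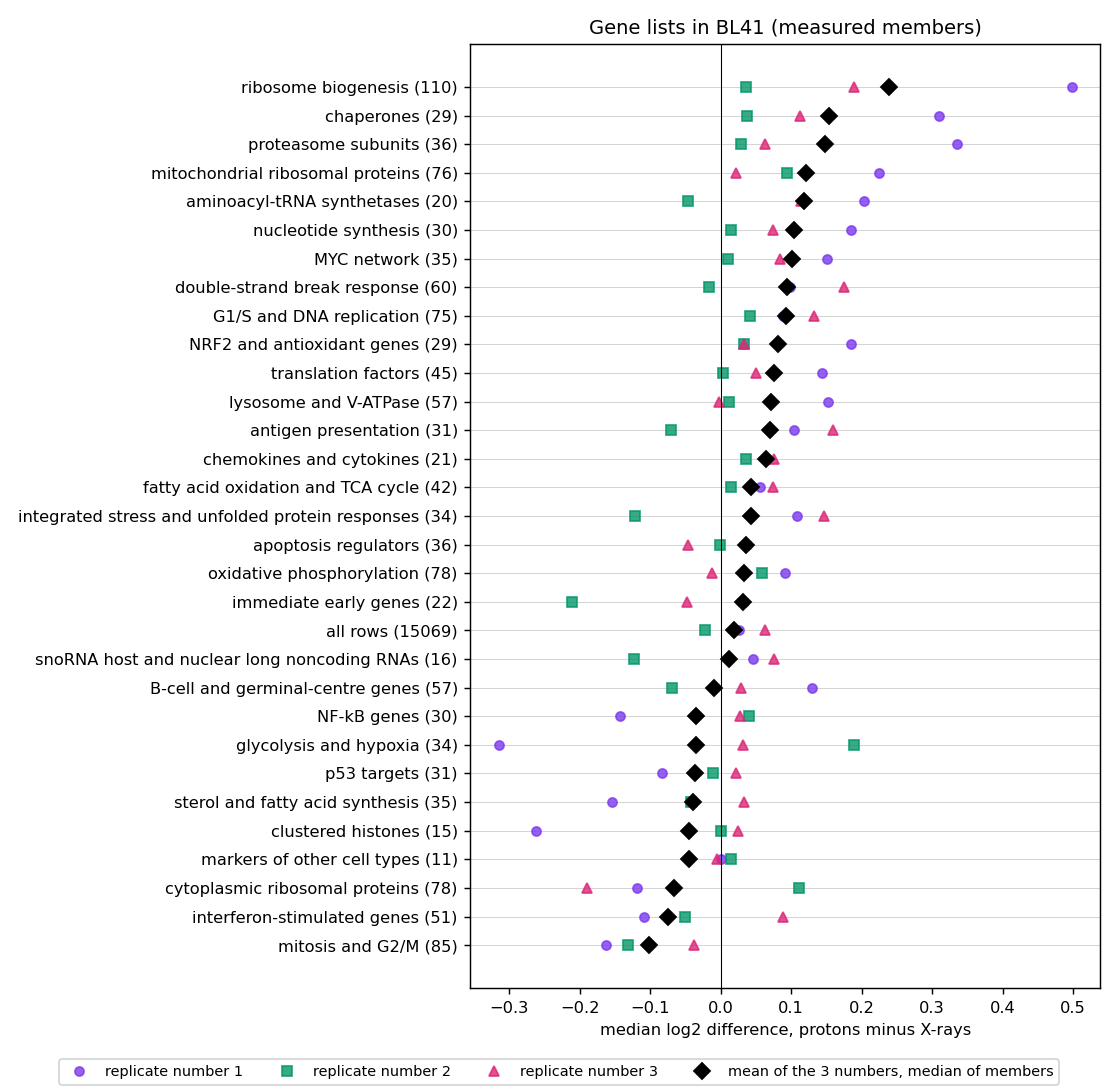
Median log2 difference, protons minus X-rays (x axis), of 30 gene lists and of all rows (y axis, measured members in brackets) in BL41, for the mean of the 3 replicate numbers (diamonds) and for each number. Ribosome biogenesis has the highest median, 0.24, and mitosis and G2/M the lowest, −0.10, and number 1 lies apart from number 2 in several lists.

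Of the 10 measured chemokines, 8 rose after protons (5.91% of all rows) and 5 after X-rays (4.83%) relative to sham, 2 counts that were not tested against each other. Between the beams the 10 chemokines had a median difference of 0.45, with 8 above 0, though medians by number were 0.86, 0.11 and 0.20. CCL3L1 had 0.47, 0.61 and 0.76 after protons, −0.13, 0.29 and 0.03 after X-rays, and −0.90, −0.66 and −1.30 after sham. It rose by 1.57 after protons and 1.01 after X-rays relative to sham (limma adjusted p = 0.0129 and 0.026), and the beams differed by 0.55 ± 0.19 (0.410). CCL3L3 differed by 0.47 ± 0.12 (limma adjusted p = 0.404), and both are near-identical copies of CCL3, so their reads may be shared. CCL17, which attracts T cells through CCR4, had 1.11, 0.71 and 0.44 after protons, 0.00, −0.01 and 0.32 after X-rays, and −1.67, −1.26 and −1.68 after sham. It rose by 2.29 after protons and 1.64 after X-rays relative to sham (limma adjusted p = 0.0167 and 0.0301), and the beams differed by 0.65 ± 0.34 (0.466).

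NF-kB genes had a median of −0.03. At an unadjusted p under 0.05, 3 of 30 were higher (6.26% of all rows) and 0 lower (5.54%), and with the block 1 was higher (2.3%). The inhibitor gene NFKBIE differed by 0.31 ± 0.09, and the deubiquitinase gene CYLD, which damps the pathway, by 0.23 ± 0.09. Interferon-stimulated genes had a median of −0.08 with 31 of 51 below 0. At an unadjusted p under 0.05, 4 were lower (5.54% of all rows) and 1 higher (6.26%). With the block 1 was lower (2.94% of all rows) and 0 higher (2.3%). IFITM1, an antiviral membrane protein, had −0.54, 0.06 and −0.01 after protons and 0.54, 0.28 and 0.51 after X-rays, a difference of −0.61 ± 0.20 (limma adjusted p = 0.404). Its neighbour IFITM2, close in sequence, differed by −0.34 ± 0.12, while CMPK2 differed by 0.19 ± 0.07. Class I antigen presentation genes had a median of −0.08 (10 of 17 below 0) and class II genes 0.12 (11 of 14 above 0). Together 0 of 31 were at an unadjusted p under 0.05, against 11.8% of all rows. PSMB9 was at −0.18 ± 0.09, HLA-DMB at 0.30 ± 0.14 and CTSS at 0.13 ± 0.07, and the first 2 stand on several lines of the table. B-cell and germinal-centre genes had a median of −0.01, with 4 of 57 higher at an unadjusted p under 0.05, a share near the 6.26% of all rows, among them SERPINA9 and the costimulator CD86 (0.25 ± 0.09). The 11 measured markers of other cell types had a median of −0.05. At an unadjusted p under 0.05, 1 was lower (CD3E, −0.24 ± 0.10), against 5.54% of all rows, and 0 were higher (6.26%). LCK, a T-cell kinase, was at −0.26 ± 0.13, and the costimulatory receptor CD28, the largest difference of the list, was at 0.31 ± 0.20. Of the 6 T-cell and NK-cell markers 2 were above 0. Among the immediate early genes, FOSL2 was at 0.31 ± 0.09 and JUNB at −0.20 ± 0.07, and EGR1 was at −0.46 ± 0.21 with overlapping libraries.

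Averaged over the 3 numbers, the medians of the metabolic lists lay close to that of all rows, with single enzymes apart. Oxidative phosphorylation genes had a median of 0.03 (57 of 78 above 0, 48 with libraries rescaled by trimmed means). At an unadjusted p under 0.05, 2 were higher (6.26% of all rows) and 0 lower (5.54%). The 2 were CYCS (0.22 ± 0.09) and NDUFA9 (0.23 ± 0.10). ATP5D was at −0.21 ± 0.09. In fatty acid oxidation ECI1 stood against ACADS, the short-chain dehydrogenase, which had −0.13, −0.08 and −0.11 after protons and 0.43, 0.07 and 0.22 after X-rays, a difference of −0.35 ± 0.10 (limma adjusted p = 0.404). IDH2, the mitochondrial isocitrate dehydrogenase, differed by −0.58 ± 0.18, with X-ray library 2 among the proton values. ACSS2, which makes acetyl-CoA from acetate, had −0.12, −0.20 and −0.13 after protons and 0.64, 0.19 and 0.54 after X-rays, a difference of −0.61 ± 0.15 (limma adjusted p = 0.392). The sterol reductase TM7SF2 differed by −0.34 ± 0.11 and NSDHL by 0.18 ± 0.07. Sterol and fatty acid synthesis genes had a median of −0.04, with 23 of 35 below 0 (46% of all rows), and the fatty acid genes alone had −0.10. At an unadjusted p under 0.05, 3 of 35 were lower (5.54% of all rows) and 1 higher (6.26%). With the block 2 were lower (2.94% of all rows) and 0 higher (2.3%). In 7 of 35 the proton libraries lay below the X-ray libraries (9.12% of all rows), and in 1 above (11%). Glycolysis and hypoxia genes had a median of −0.04, but the sign was not shared. Their medians in numbers 1, 2 and 3 were −0.31, 0.19 and 0.03, with 3, 26 and 20 of 34 above 0. The hypoxia genes alone had medians of −0.65, 0.32 and 0.08 in numbers 1, 2 and 3. The glucose transporter SLC2A3 was at −0.24 ± 0.12, and it rose after both beams relative to sham, by 0.49 after protons and 0.73 after X-rays (limma adjusted p = 0.0473 and 0.021). The lactate transporter SLC16A1 was at 0.28 ± 0.13.

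Antioxidant and NRF2 target genes had 6 of 29 members higher after protons at an unadjusted p under 0.05 (6.26% of all rows) and 0 lower, and 3 higher with the block (2.3%). Their median was 0.08, with 19 above 0, and it was −0.00102 without number 1. GCLC and SRXN1 were among the 6, as were PRDX4, a peroxiredoxin of the secretory pathway (0.29 ± 0.10), and the mitochondrial superoxide dismutase SOD2 (0.20 ± 0.08). Against sham, 4 of the 29 rose after protons (5.91% of all rows) and 3 after X-rays (4.83%). Of 57 lysosomal genes, 16 rose after protons relative to sham (5.91% of all rows) and 13 after X-rays (4.83%), and the others did not pass the test. The list medians were 0.31 after protons and 0.24 after X-rays. Their median difference between beams was 0.07. At an unadjusted p under 0.05, 5 were higher (6.26% of all rows) and 4 lower (5.54%). With the block 1 was higher (2.3% of all rows) and 3 lower (2.94%). PPT1, a lysosomal thioesterase, differed by 0.25 ± 0.08, and the glycan hydrolase NAGLU differed by −0.28 ± 0.10. The snoRNA host transcript GAS5, which is degraded when translation runs, differed by −0.21 ± 0.07.

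GC content moved with the difference. Among rows with a GENCODE transcript, cut into 5 equal groups, the group lowest in GC (median 38.5%) had a median difference of 0.06, and the highest (median 61.2%) had −0.06. By transcript length the medians ran from −0.01 in the shortest of 5 groups to 0.06 in the longest. Median GC was 47.9% in ribosome biogenesis, 48.1% in cytoplasmic ribosomal proteins, 43.9% in mitosis and G2/M and 48.2% in all rows. In a fit adjusted for GC content and length, 1622 rows had an unadjusted p under 0.05, and the list medians (0.23 for ribosome biogenesis and −0.10 for mitosis and G2/M) were close to the unadjusted ones.

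In the mouse line J3D ribosome biogenesis genes were also mostly above 0, most in number 1, while mitotic genes were not mostly below 0. The labels do not state whether equal numbers in the lines mark a shared day or beam session, so a shared session cannot be told apart from a shared response. Ribosome biogenesis genes in J3D had a median of 0.33 with 104 of 109 above 0 (57.1% of J3D rows), and medians of 0.80, −0.05 and 0.24 in numbers 1, 2 and 3. In BL41 the values were 0.50, 0.04 and 0.19. Hypoxia genes had −0.68, 0.37 and −0.21 in J3D and −0.65, 0.32 and 0.08 in BL41. Cytoplasmic ribosomal proteins had −0.33, 0.14 and −0.14 in J3D and −0.12, 0.11 and −0.19 in BL41. Mitosis and G2/M genes had the other sign in J3D, with a median of 0.07 (54 of 83 above 0), and medians of 0.19, −0.04 and 0.10. Over 8389 shared symbols, Spearman's rho between the lines' differences was 0.37 for number 1, 0.13 for number 2 and 0.12 for number 3. It was 0.23 for BL41 number 3 with J3D number 1 and −0.18 for BL41 number 3 with J3D number 2. These describe genes, which are not independent replicates. In J3D limma called 0 of 12264 rows between the beams at an adjusted p under 0.05 and 1456 (11.9%) at an unadjusted p under 0.05.

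**Figure D5:**
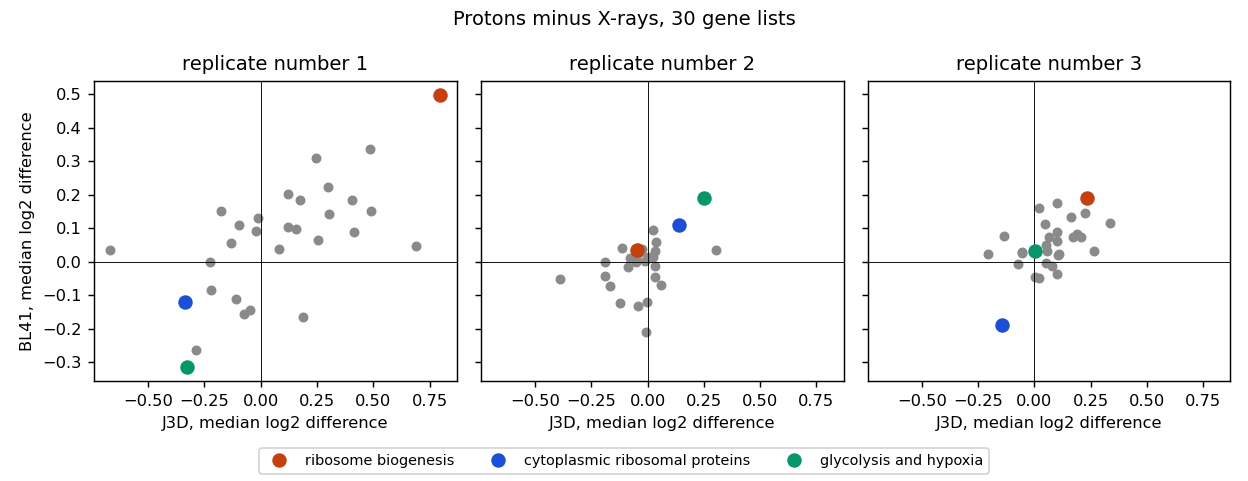
Median log2 difference, protons minus X-rays, of 30 gene lists in BL41 (y axis) and in J3D (x axis), in replicate numbers 1, 2 and 3 (panels), with 3 lists in colour. Ribosome biogenesis stands at the top right in number 1 (0.50 in BL41 and 0.80 in J3D), near 0 in number 2 and at 0.19 and 0.24 in number 3.

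Single genes described above can be set beside their J3D values. CD274 differed by −0.60 in J3D, with −1.42, 0.06 and −0.43 by number, and LAT by 0.07. GCLC differed by 0.16 (0.56, −0.06 and −0.02), ECI1 by −0.05 and NHEJ1 by 0.31 (0.57, −0.07 and 0.43). AURKB differed by −0.05, with −0.06, −0.02 and −0.06 by number, and SLBP by 0.28 (0.71, −0.03 and 0.16). None of these was tested between the lines, which lie in separate tables.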

How the data were processed

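RNA sequencing values of 9 BL41 libraries (3 proton, 3 X-ray, 3 sham) were used, and J3D values were read from a separate table. The submitters' processing notes list TopHat2, hg19 and mm10, while the sources used here name no counter, annotation, strandedness or normalization. The authors deposited centred logarithms, read here as log2 values although the base is unstated, and any other base rescales all differences equally without touching a test. Rows are centred within each replicate number, by inference over 4 libraries of which 3 were used: in rows tied at the lowest value, a mean of 0 puts the remaining library at that value for 63.6 to 66.8% (tolerance 1e-06). Depth is unknown, so precision rests on the spread between libraries.

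Differences and tests were computed on the whole table with limma 3.58.1 (R 4.3.3, statmod 1.5.0), with a mean per group, variance trend and robust moderation, and Benjamini-Hochberg adjustment over 15069 rows. The filter on low values removed 0 rows and no pseudocount was used. List members took 1 row per symbol. Summaries and plots used Python 3.11.15, numpy 2.4.6, pandas 2.3.3, scipy 1.17.1 and matplotlib 3.10.9. Both fits were tested on simulated data with independent noise centred within each number, a setting that the block matches. There the fit without the block made too many false calls and gave intervals that were too narrow. The fit with the block did not, but it recovered fewer of the changed genes. The main fit has no block, because no label explains what the numbers stand for, and centring biases the check of pairing (r from −0.452 to −0.117 between same-numbered libraries).

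Members, lists and tests were chosen with earlier results of these data known. Genes named are the 10 each way with the smallest p among official symbols on 1 line of the table, the 6 each way with the largest difference among non-overlapping rows, up to 4 of each list by p, and a fixed set that includes CDKN1A, MYC and HMOX1. GNL2 and LTV1 were added for their promoters. Promoters come from RefSeq (GRCh38.p14), GC content and length from GENCODE v29. Some genes that the rule picks are not reported here.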

Additional observations from a re-analysis of the deposited data

Results flagged for a closer look

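Of 86 genes named in the text and measured in both lines, and of 30 lists, 3 genes had differences of one sign in all 3 BL41 numbers and of the other sign in all 3 J3D numbers. SRXN1, sulfiredoxin, differed between protons and X-rays by 1.06 in BL41 (0.70, 1.44 and 1.03 by number) and by −0.18 in J3D (−0.05, −0.48 and −0.01). POLD3, a DNA polymerase delta subunit, differed by 0.26 in BL41 and by −0.01 in J3D, where all 3 values were within 0.02 of 0. CYLD, which damps NF-kB signalling, differed by 0.23 in BL41 (0.07, 0.45 and 0.16) and by −0.09 in J3D (−0.10, −0.04 and −0.13). The difference between the lines was not tested, since the tables were normalized separately.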

How the results depend on the processing

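Alternatives on GC content and length, on rows with no tied values and on leaving out a whole number were chosen after seeing the data. At an adjusted p under 0.05 limma called 0 rows except with quantile normalization, 1 row (AC011330.6), and without proton library 1, 1 row (AC007560.1), both named after their values were seen. Leaving out libraries, or a number in turn, gave 0 to 1 such rows, 748 to 2765 rows at an unadjusted p under 0.05, and a median of all rows from −0.01 to 0.05. The 1779 rows at an unadjusted p under 0.05 became 790 with the replicate block, 847 with the block on the 6 irradiated libraries, and 712 with the block after GC and length adjustment. The numbers pair the samples by no label, and the block changed no call between the beams. The other alternatives gave 1622 to 2249. The medians of the ribosome biogenesis and mitosis lists ran from 0.12 to 0.35 and from −0.15 to −0.07 without libraries.

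Of 119 named genes, 111 kept their sign under all 22 alternatives. TAF1C turned to 0.19 without proton library 2 and to 0.39 without number 2. With libraries left out, CDKN1A ranged from −0.16 to 0.0495, MYC from −0.0379 to 0.13, PCNA from −0.0132 to 0.084, HMOX1 from −0.13 to 0.0881, IL32 from −0.46 to 0.0791, GNG8 from −0.18 to 0.40, CD28 from −0.0495 to 0.57 and TAF1C from −1.27 to 0.39. With quantile normalization PCNA was at −0.0044, and with trimmed-mean scaling HMOX1 was at −0.0085. The cause of these changes was not tested. The filter on low values removed 0 rows and a pseudocount did not apply to log values, so neither gave an alternative.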
